A study of Homo sapiens with 12 samples.

Results

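The 10 genes described here act at the start and at the end of canonical Wnt signalling. They are the Frizzled receptors FZD2, FZD6 and FZD7, the coreceptors LRP5 and LRP6, the destruction complex members APC and GSK3B, and β-catenin (CTNNB1) with its nuclear partners TCF7L2 and TBL1X. APC and GSK3B are neither receptors nor cofactors in the strict sense and are kept apart under their own role. The 10 members are among 11963 genes that the array's annotation names on a probe set of their own. A probe set was used when that annotation gave it exactly 1 gene, and among several of 1 gene the brightest on average over the 12 arrays stands for the gene. All 10 members had at least 1 such probe set and 25 in all, and the 5 members with more than 1 are given with their other probe sets beside the brightest.

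The cells were RKO, a human colorectal carcinoma line known for microsatellite instability and for wild-type APC and CTNNB1. They were left untreated (control), or received 20 µM thymoquinone (TQ), 10 µg/mL 5-fluorouracil (5-FU, 76.8 µM), or both agents at those doses (TQ+5-FU). The labels call the control untreated, whereas the methods name DMSO as the vehicle, and treatment lasted 24 h per the methods. Each group had 3 arrays of the Affymetrix HG-U133A 2.0 type. On sample size the methods refer to independent biological replicates, without saying how the cultures behind the 3 arrays were separated. Nothing in the labels says that the 3 came from separate cultures, so that p-values measure only the spread between these arrays. All values come from 1 line, and in bulk RNA a lower level per cell cannot be told apart from fewer cells that express the gene.

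In canonical signalling a Wnt ligand bridges a Frizzled receptor and an LRP5 or LRP6 coreceptor, which disables the complex that marks β-catenin for degradation. APC is a scaffold of that complex and GSK3B is one of its kinases. Stabilised β-catenin enters the nucleus, binds TCF/LEF factors such as TCF7L2 and recruits coactivators, and TBL1X is a WD40 repeat protein of the NCoR and SMRT corepressor complexes that also binds β-catenin. Most colorectal tumours carry mutations that activate this pathway.

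Arrays of 2 samples stood apart from their replicates and decide how several of these genes read. The mean correlation with the other arrays of the same group over all 22215 probe sets was between 0.997 and 0.998 for the control and TQ arrays. It was 0.911 for 5-FU replicate 3, against 0.952 and 0.957 for the other 5-FU arrays, and 0.978 for TQ+5-FU replicate 2, against 0.984 and 0.990 for its replicates. These are called the displaced arrays below, and the members' differences from control are given with all 12 arrays and with the 10 that remain without them. The 3′ minus 5′ log2 signal of the ACTB control probe sets was 0.557 and 0.886 in the displaced arrays, against 0.573 to 0.957 in the others, and that of GAPDH was 0.0626 and 0.132, against 0.0456 to 0.0889. Of 9 colon epithelium markers, EPCAM, KRT8, KRT18 and CDX2 were above the median of all probe sets, while KRT19, CDH1, CDH17, VIL1 and KRT20 had mean log2 signals of only 3.00 to 4.16. Of the 13 measured leukocyte, fibroblast and endothelium markers, LCP1 and COL1A1 were also above that median, at mean log2 signals of 10.49 and 8.18. None of the 13 passed limma's test against control with 12 arrays, and 0, 1 and 0 had an unadjusted p under 0.05 with TQ, 5-FU and TQ+5-FU. Their median log2 difference from the control mean was 0.41, 0.63 and 0.37 in 5-FU replicate 3, and 0.11, 0.16 and 0.38 in TQ+5-FU replicate 2. In the other 10 arrays these medians lay between -0.33 and 0.12. In the 10 arrays 1 of the 13 was called, the endothelium marker CDH5, which fell by 0.32 with TQ (adjusted p = 0.0157). Of the 9 colon epithelium markers 1 was called with 12 arrays, KRT18 with 5-FU, and 4 were called in at least 1 comparison with 10 arrays. In that fit KRT8 rose by 0.42 and CDX2 fell by 0.43 with TQ, EPCAM rose by 0.48, KRT18 by 0.37 and CDX2 fell by 0.35 with 5-FU, and EPCAM rose by 0.49 with TQ+5-FU. The median log2 difference of the 9 from the control mean was -0.15 to -0.08 in the TQ arrays, 0.10 to 0.47 in the 5-FU arrays and 0.10 to 0.29 in the TQ+5-FU arrays, against -0.03 to 0.03 in the controls, and the part of these markers in the members' differences was not tested.

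The members did not follow the displacement alike. In 5-FU replicate 3, the log2 difference of FZD6 from its 5-FU replicates was -3.88, which placed it in the lowest 0.158% of all probe sets, and that of CTNNB1 was -2.43, at the 5.72 percentile. FZD2 lay 1.22 above its replicates, at the 99.3 percentile, and LRP5 0.97 above, at the 91.9 percentile. TQ+5-FU replicate 2 had the same order at a smaller size for FZD6, at -1.50 and the 2.35 percentile, and for FZD2, 0.69 above and at the 98.9 percentile. TBL1X and TCF7L2 sat in the middle of the distribution in both arrays, with differences of 0.19 and 0.42 in 5-FU replicate 3 and of -0.02 and 0.16 in TQ+5-FU replicate 2. The part of RNA quality or of other cells in these shifts was not tested.

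**Figure D1:**
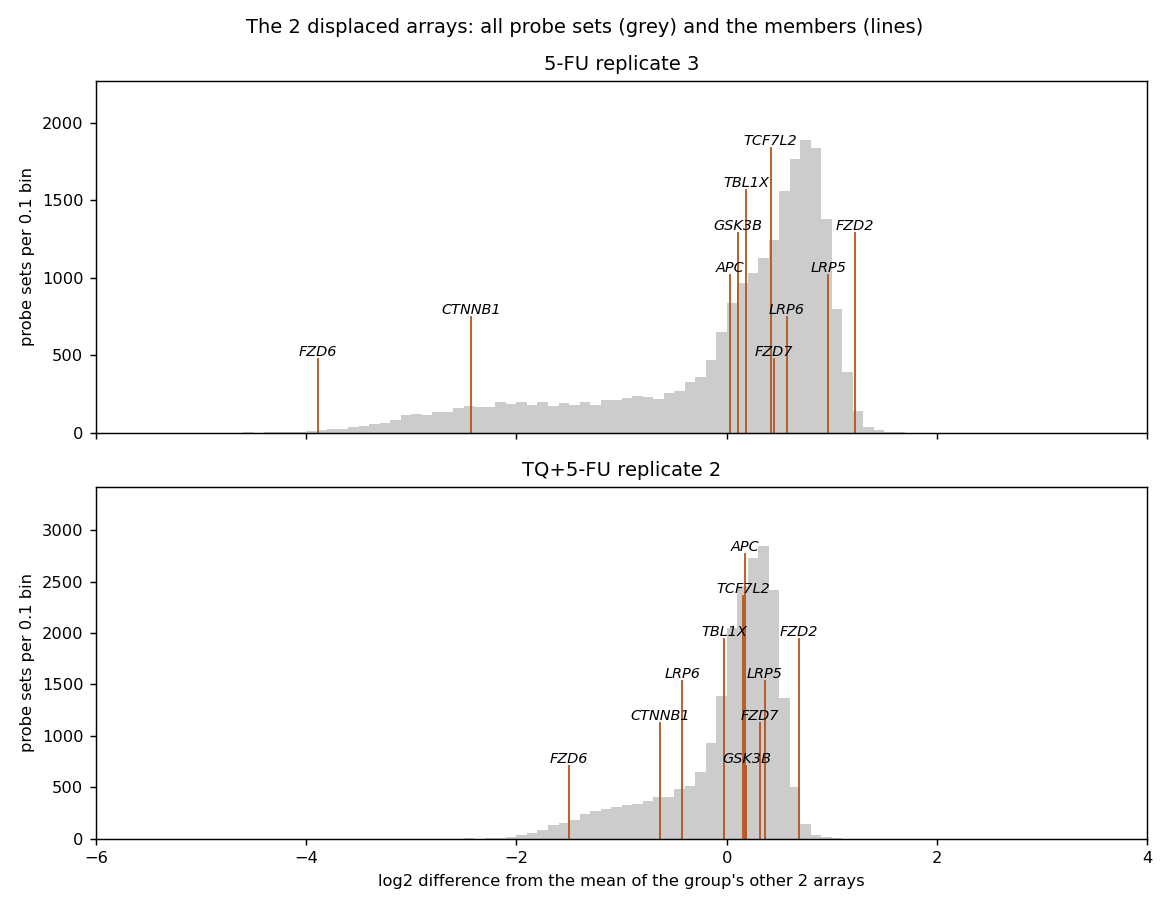
Log2 difference of 5-FU replicate 3 (top) and TQ+5-FU replicate 2 (bottom) from the mean of the other 2 arrays of the same group; the x axis is in log2 units and the y axis counts probe sets per bin, with all 22215 probe sets in grey and the 10 members as lines. FZD6 lies at -3.88 and -1.50 and FZD2 at 1.22 and 0.69, while TBL1X lies within 0.19 of its own replicates in both.

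With all 12 arrays, 1 of the 10 members passed an adjusted p of 0.05 with TQ, 1 with 5-FU and 2 with TQ+5-FU, all of them lower than in the control. Over all probe sets the share called was 0.252% with TQ, 6.68% with 5-FU and 2.58% with TQ+5-FU. Without the displaced arrays the counts were 7 (2 higher, 5 lower), 6 (3 higher, 3 lower) and 6 (2 higher, 4 lower) of 10, against shares of 30.6%, 26.1% and 21.4% of all probe sets. Neither displaced array belongs to the TQ or the control group. Fold changes with TQ against control are therefore the same in both fits, and only their standard errors and p-values differ. The median SE of that comparison over all probe sets was 0.20 with 12 arrays and 0.099 with 10. The test across the 4 groups called 2 members of 10 with 12 arrays, where 7.54% of all probe sets were called, and 7 members with 10 arrays, where 42% were called. The median log2 fold change of the 10 members with 12 arrays was -0.21 with TQ, -0.05 with 5-FU and -0.08 with TQ+5-FU, and over all probe sets it was -0.09, 0.07 and -0.00312. The members' medians in the 10 arrays were -0.21, 0.07 and -0.09, so that the sign with 5-FU turned, beside -0.09, -0.02 and -0.04 over all probe sets. These 3 comparisons share the control arrays, so that their values are set side by side and not counted as separate support.

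**Figure D2:**
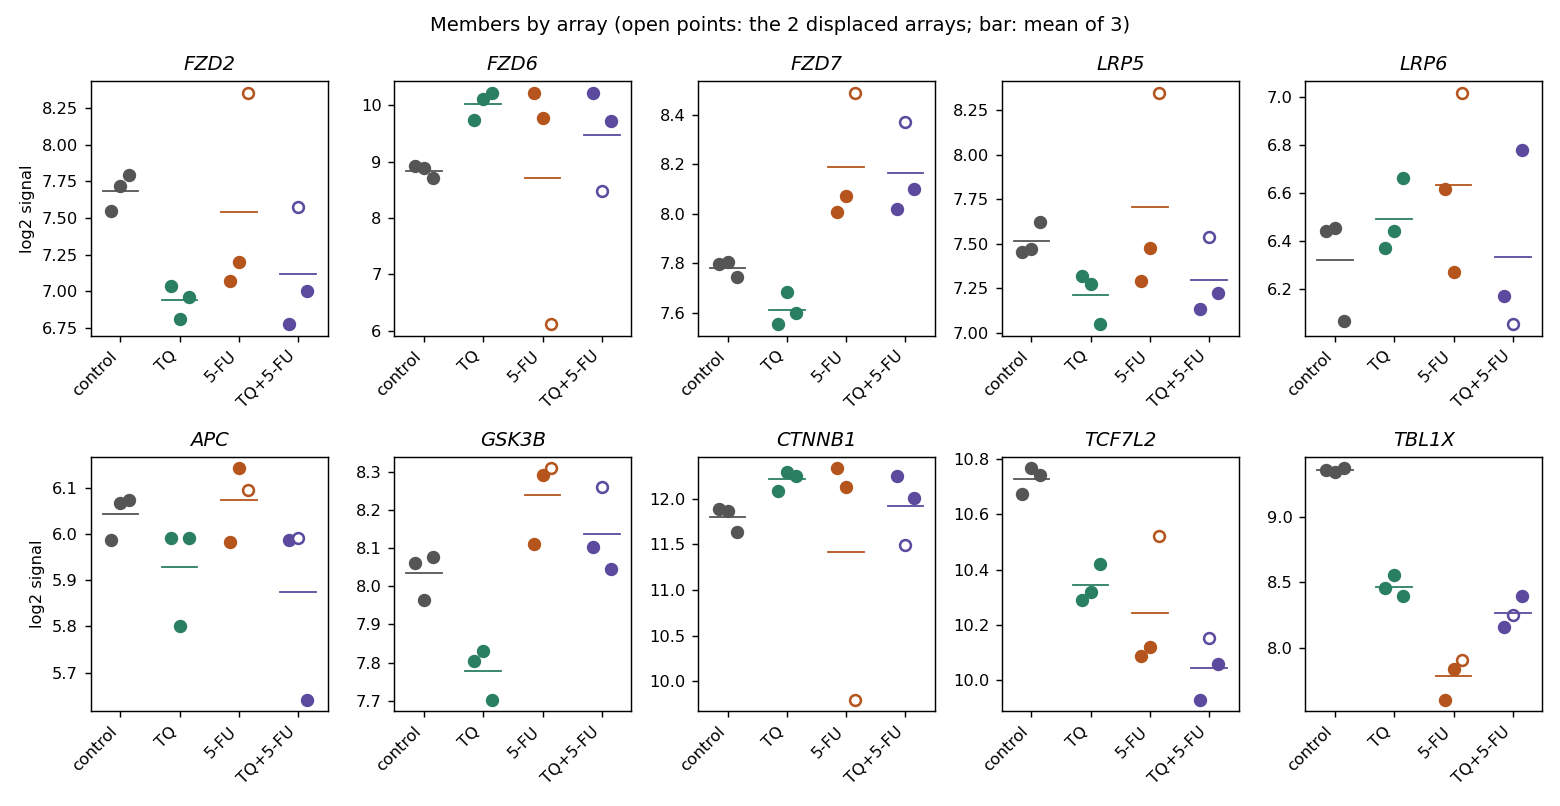
Log2 signal of each member's brightest probe set in every array (y axis, scaled per gene) by group (x axis); points are arrays, open points the 2 displaced arrays, and bars the means of 3. TBL1X separates every treated array from the controls, whereas in FZD6 the 5-FU mean is pulled down by 1 open point at 6.12.

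TBL1X, on probe set 213400_s_at, was the member called in all 3 comparisons with the control. Its log2 signals were 9.36, 9.34 and 9.37 in the control, 8.46, 8.55 and 8.39 with TQ. Under 5-FU it read 7.60, 7.84 and 7.91, and under both agents 8.16, 8.25 and 8.39. Every treated array was below every control array, the 5-FU arrays were the lowest, and the TQ and TQ+5-FU arrays met at 8.39. TBL1X fell by 0.89 on the log2 scale with TQ (SE 0.11, a 1.85-fold lower signal, adjusted p = 0.0154), by 1.58 with 5-FU (SE 0.11, 2.99-fold lower, adjusted p = 4.21e-05) and by 1.09 with TQ+5-FU (SE 0.11, 2.13-fold lower, adjusted p = 0.000791). Leaving out the displaced arrays gave -0.89, -1.64 and -1.08, with adjusted p = 0.000268, 2.21e-06 and 6.49e-05. The 5-FU and TQ+5-FU calls held under all 23 alternatives run, with adjusted p of at most 0.0222 and 0.0184. The TQ call held under 14 of 23, with adjusted p between 2.09e-06 and 0.13, and leaving out any single control or TQ array ended it.

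The combination did not lower TBL1X further than 5-FU alone. TBL1X was 0.49 higher with TQ+5-FU than with 5-FU (SE 0.11, adjusted p = 0.099 with 12 arrays and a share called of 0.738%, no member called and 1 at an unadjusted p under 0.05), and all 3 TQ+5-FU arrays were above all 3 5-FU arrays. The same difference was 0.56 without the displaced arrays (SE 0.11, adjusted p = 0.0159), where 6.13% of all probe sets were called and TBL1X was the 1 member called. TQ+5-FU lay 0.20 below TQ (95% interval -0.45 to 0.05, adjusted p = 0.534). The interaction, that is the change with both agents minus the sum of the changes with each, was 1.38 (SE 0.16, 95% interval 1.02 to 1.73, adjusted p = 0.0306), in a contrast that called 0.126% of all probe sets and no other member. It was 1.45 without the displaced arrays (SE 0.14, adjusted p = 0.000884), where 9.89% were called. The interaction was called under 6 of 21 alternatives, with adjusted p between 1.37e-07 and 0.138, and was lost when any 1 array other than 5-FU replicate 3 was left out.

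The other 4 probe sets of TBL1X moved the same way against the control. With 12 arrays their log2 fold changes were all below 0 in all 3 comparisons with the control, and over all 5 probe sets they ranged from -0.89 to -0.64 with TQ, from -1.58 to -1.02 with 5-FU and from -1.11 to -0.55 with TQ+5-FU. With 5-FU 4 of these 4 passed the threshold, with TQ+5-FU 3 and with TQ 1. All 4 passed it in each comparison with the control without the displaced arrays. Between TQ+5-FU and 5-FU they were less alike in that fit. On 201867_s_at TQ+5-FU was 0.57 higher (adjusted p = 0.0411). On 201869_s_at, 213401_s_at and 201868_s_at the difference was 0.27, 0.22 and 0.16 (adjusted p = 0.317, 0.599 and 0.512). The interaction with 12 arrays passed on 201867_s_at (1.24, adjusted p = 0.0498). It was 1.06, 1.09 and 0.89 on the others (adjusted p = 0.0742, 0.219 and 0.0979).

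TCF7L2, the TCF/LEF factor that carries β-catenin to its targets in the intestinal epithelium, was lower in every treated group on probe set 212761_at. Its log2 signals were 10.67, 10.77 and 10.74 in the control, 10.29, 10.32 and 10.42 with TQ. In the 5-FU group the values were 10.09, 10.12 and 10.52, and in the TQ+5-FU group 9.93, 10.15 and 10.06. All 9 treated arrays were below the lowest control array, and 10.52 belonged to 5-FU replicate 3. It fell by 0.68 with TQ+5-FU (SE 0.13, 1.60-fold lower, adjusted p = 0.0226). The difference was -0.48 with 5-FU (SE 0.13, adjusted p = 0.0532) and -0.38 with TQ (SE 0.13, adjusted p = 0.318). Without the displaced arrays TCF7L2 fell in all 3, by 0.38, 0.62 and 0.73 with TQ, 5-FU and TQ+5-FU (adjusted p = 0.00319, 0.000246 and 0.000193). In that fit TQ+5-FU was also 0.35 below TQ (SE 0.08, adjusted p = 0.0204). The TQ+5-FU call held under 15 of 23 alternatives, with adjusted p between 1.19e-08 and 0.114, and leaving out any single control or TQ+5-FU array ended it.

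All 6 probe sets of TCF7L2 had lower means in each treated group, from -0.55 to -0.37 with TQ, from -0.80 to -0.26 with 5-FU and from -0.80 to -0.41 with TQ+5-FU. Probe set 212762_s_at passed the threshold with 5-FU (-0.80, SE 0.14, adjusted p = 0.00638) and with TQ+5-FU (-0.80, SE 0.14, adjusted p = 0.0132), and the remaining 4 passed it in none of the 3 comparisons with 12 arrays. Without the displaced arrays all 6 passed in all 3. Between TQ+5-FU and TQ the probe sets were less alike in that fit. There 212762_s_at also passed (-0.47, adjusted p = 0.034). On 216035_x_at, 216511_s_at, 216037_x_at and 212759_s_at the difference was -0.16, 0.01, -0.14 and -0.05 (adjusted p = 0.288, 0.976, 0.314 and 0.823).

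**Figure D3:**
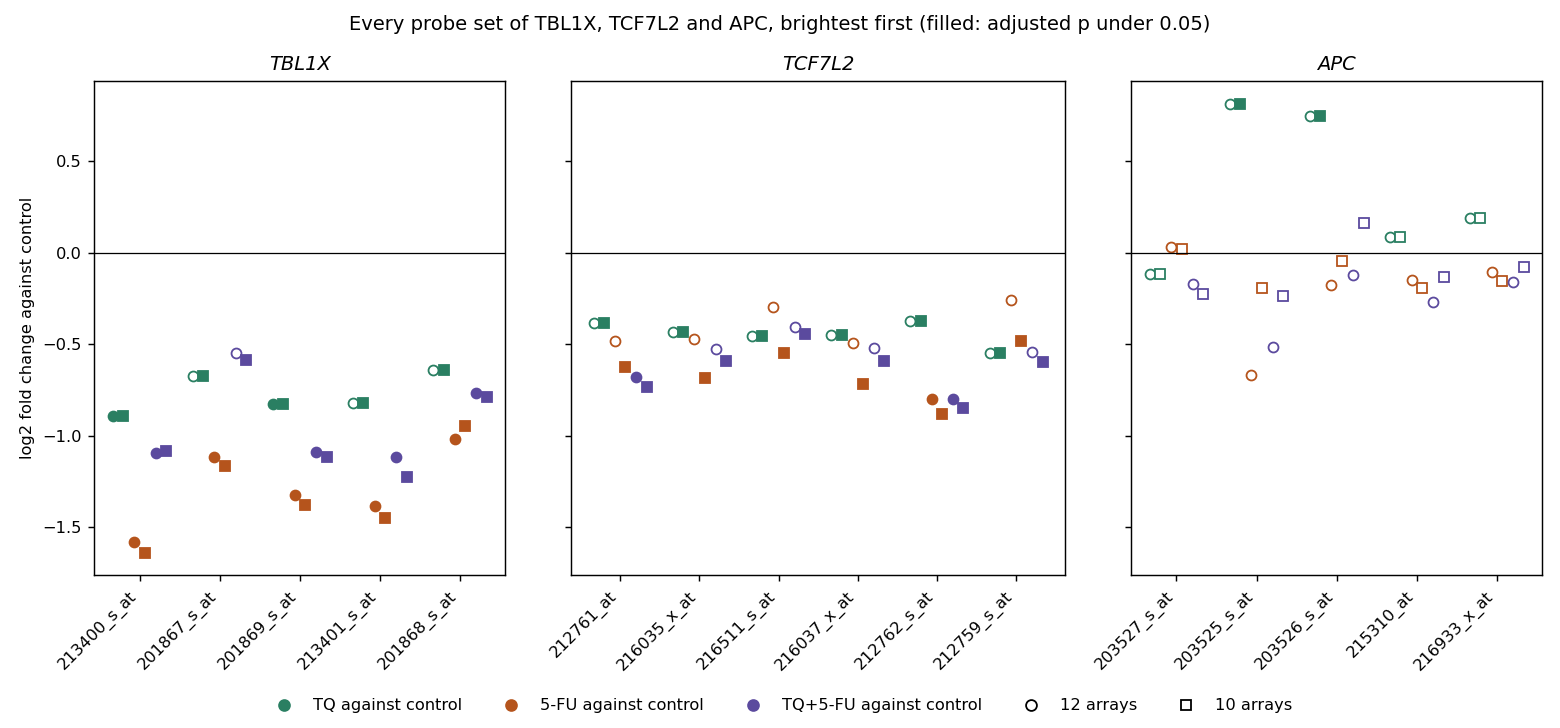
Log2 fold change against control (y axis) of every probe set of TBL1X, TCF7L2 and APC (x axis, brightest first) with 12 arrays (circles) and 10 arrays (squares); filled marks passed an adjusted p of 0.05. All 11 probe sets of TBL1X and TCF7L2 lie below 0 in each comparison, while those of APC lie on both sides.

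The start regions of TBL1X and TCF7L2 are shown because these were the 2 members that passed a test with all 12 arrays. RefSeq promoter windows on GRCh38.p14, each 300 bases with 250 before and 50 after an annotated start, matched 6 of the 10 members with 10 windows. FZD2, FZD6, FZD7 and LRP6 had no entry in the table used. Each window was searched on both strands for the E-box CACGTG, the TCF/LEF core CTTTGAT, the CCAAT box CCAAT and the AP-1 site TGANTCA, which do not overlap one another here. The windows of TBL1X lie at chrX:9463045-9463344 and chrX:9464808-9465107, and the first of 3 windows of TCF7L2, the 1 printed, lies at chr10:112949997-112950296, all on the plus strand, with capitals marking a motif.
TBL1X first start: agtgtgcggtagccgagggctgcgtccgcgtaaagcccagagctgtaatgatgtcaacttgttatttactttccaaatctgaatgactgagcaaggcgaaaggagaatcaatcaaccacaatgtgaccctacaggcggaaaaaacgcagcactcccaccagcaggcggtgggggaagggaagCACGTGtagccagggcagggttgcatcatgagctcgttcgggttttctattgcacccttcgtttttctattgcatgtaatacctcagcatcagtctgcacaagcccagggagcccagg
TBL1X second start: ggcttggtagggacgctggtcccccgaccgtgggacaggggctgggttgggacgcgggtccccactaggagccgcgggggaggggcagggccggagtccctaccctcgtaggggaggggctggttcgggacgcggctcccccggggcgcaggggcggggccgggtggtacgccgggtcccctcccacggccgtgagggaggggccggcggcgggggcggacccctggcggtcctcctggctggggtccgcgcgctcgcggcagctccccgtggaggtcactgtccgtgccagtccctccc
TCF7L2 first start: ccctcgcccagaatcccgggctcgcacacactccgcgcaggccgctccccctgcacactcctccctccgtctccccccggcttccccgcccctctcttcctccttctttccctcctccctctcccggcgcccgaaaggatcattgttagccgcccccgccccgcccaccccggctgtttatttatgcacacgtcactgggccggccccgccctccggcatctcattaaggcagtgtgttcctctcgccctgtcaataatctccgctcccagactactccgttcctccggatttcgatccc
The first TBL1X window held 1 E-box, beginning 68 bases before the start, and the second window and the first and second of TCF7L2 held none of the motifs. The third TCF7L2 window held a CCAAT box 242 bases before its start, and the GSK3B window held 1 at 199. An E-box was present in 7.26% of all 35116 windows, a TCF/LEF core in 2.62%, a CCAAT box in 34.6% and an AP-1 site in 7.71%. No window of the 6 members held a TCF/LEF core or an AP-1 site, and the second APC window held an E-box 46 bases before the start with CCAAT boxes at 64 and 24. The G+C content of the printed windows was 52.3%, 78.3% and 65.7%, against a median of 58.7% over all windows.

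CTNNB1, on probe set 201533_at, read 11.88, 11.87 and 11.63 in the control, 12.09, 12.29 and 12.25 with TQ. The 5-FU arrays read 12.33, 12.12 and 9.80, and the TQ+5-FU arrays 12.25, 11.49 and 12.01. Both values below the control range came from the displaced arrays, and every other treated array was above every control array. With 12 arrays the log2 differences were 0.41, -0.38 and 0.12 with a shared SE of 0.53 (adjusted p = 0.829, 0.708 and 1), so that a change in either direction was not detectable. Without the displaced arrays CTNNB1 rose by 0.41 with TQ (SE 0.10, adjusted p = 0.013) and by 0.43 with 5-FU (SE 0.12, adjusted p = 0.0192). The difference with TQ+5-FU was then 0.33 (SE 0.12, adjusted p = 0.0688). The 5-FU difference changed sign with 1 array, 5-FU replicate 3. These are transcript levels, and β-catenin is mainly controlled through the stability of the protein, which the arrays do not measure.

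Among the Frizzled receptors, FZD6 differed most between the fits with 12 and with 10 arrays. FZD6, often described as a receptor that can restrain canonical signalling and act in planar polarity, read 8.93, 8.89 and 8.72 in the control and 9.74, 10.12 and 10.23 with TQ. The 5-FU arrays read 10.22, 9.78 and 6.12, and the TQ+5-FU arrays 10.22, 8.48 and 9.73. All 7 treated arrays outside the displaced pair were above the controls, and both displaced arrays were below them. With 12 arrays the differences from control were 1.18, -0.14 and 0.63 with a shared SE of 0.88 (adjusted p = 0.725, 0.94 and 1). Without the displaced arrays FZD6 rose by 1.18 with TQ (SE 0.17, 2.27-fold, adjusted p = 0.000795), by 1.16 with 5-FU (SE 0.18, 2.23-fold, adjusted p = 0.000866) and by 1.13 with TQ+5-FU (SE 0.18, 2.19-fold, adjusted p = 0.00174). TQ+5-FU then differed from 5-FU by -0.03 (95% interval -0.47 to 0.42) and from TQ by -0.05 (95% interval -0.46 to 0.36). The interaction was -1.21 (SE 0.26, adjusted p = 0.0193) with 10 arrays and -0.41 (SE 1.25, adjusted p = 1) with 12.

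FZD2, a receptor for canonical and noncanonical ligands, ran the opposite way. It read 7.55, 7.72 and 7.79 in the control, 7.04, 6.81 and 6.97 with TQ. Under 5-FU it read 7.07, 7.20 and 8.36, and under both agents 6.78, 7.58 and 7.005. The 8.36 and the 7.58 were the displaced arrays, and all other treated arrays were below the control range. The log2 differences with 12 arrays were -0.75, -0.15 and -0.57 (SE 0.31, adjusted p = 0.466, 0.807 and 0.636). FZD2 fell by 0.75, 0.55 and 0.80 with TQ, 5-FU and TQ+5-FU without the displaced arrays (SE 0.10, 0.11 and 0.11, adjusted p = 0.000654, 0.00349 and 0.000706).

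FZD7, a receptor linked to canonical signalling in intestinal stem cells, read 7.80, 7.81 and 7.75 in the control on probe set 203706_s_at. It read 7.55, 7.69 and 7.60 with TQ. In the 5-FU group the values were 8.01, 8.07 and 8.49, and in the TQ+5-FU group 8.02, 8.37 and 8.10. The TQ arrays were all below the controls, and the arrays of both 5-FU groups were all above them. With 12 arrays no difference passed the threshold (-0.17, 0.41 and 0.38, SE 0.14, adjusted p = 0.755, 0.148 and 0.295). With 10 arrays FZD7 rose by 0.26 with 5-FU (SE 0.08, adjusted p = 0.0334) and by 0.28 with TQ+5-FU (SE 0.08, adjusted p = 0.0289). TQ+5-FU was also 0.45 above TQ in that fit (SE 0.08, adjusted p = 0.00592). That contrast called 11.7% of all probe sets and, by their brightest probe sets, 2 members, FZD7 and TCF7L2. With 12 arrays that contrast called 0.968% of all probe sets and no member, 3 of the 10 at an unadjusted p under 0.05. The second FZD7 probe set, 203705_s_at, read 7.71, 7.81 and 7.70 in the TQ arrays against 7.39, 7.43 and 7.68 in the control, so that its direction with TQ was opposite to that of the brightest. In the 10 arrays this probe set rose by 0.42 with 5-FU and by 0.59 with TQ+5-FU (adjusted p = 0.0188 and 0.0044). Its difference between TQ+5-FU and TQ was 0.35 there and did not pass (adjusted p = 0.0748).

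LRP5, a coreceptor that Wnt ligands join to Frizzled, read 7.45, 7.47 and 7.62 in the control, 7.32, 7.27 and 7.05 with TQ. The 5-FU arrays read 7.29, 7.48 and 8.35, and the TQ+5-FU arrays 7.13, 7.54 and 7.22. The TQ arrays were below all controls, and 8.35 was 5-FU replicate 3. The 12-array differences were -0.30, 0.19 and -0.22 (SE 0.24, adjusted p = 0.742, 0.676 and 1). In the 10 arrays LRP5 fell by 0.30 with TQ (SE 0.09, adjusted p = 0.0339) and by 0.34 with TQ+5-FU (SE 0.11, adjusted p = 0.0442), and the difference with 5-FU was -0.13 (SE 0.11, adjusted p = 0.44).

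LRP6, the close relative of LRP5, passed no test in either fit. Its arrays read 6.07 to 6.45 in the control, 6.37 to 6.66 with TQ, 6.27 to 7.02 with 5-FU and 6.05 to 6.78 with TQ+5-FU, and the groups overlapped throughout. With 12 arrays its differences from control were 0.17, 0.31 and 0.01 (SE 0.23, adjusted p = 0.835, 0.506 and 1). The 95% intervals of its 10-array differences ran from -0.20 to 0.54 with TQ, from -0.29 to 0.54 with 5-FU and from -0.26 to 0.57 with TQ+5-FU. Its second probe set, 34697_at, was dimmer, between 4.43 and 4.89 in all 12 arrays. With 12 arrays its differences from control were 0.12, -0.09 and -0.07. With 5-FU and TQ+5-FU their sign was opposite to that of the brightest.

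GSK3B, a kinase that phosphorylates β-catenin in the destruction complex, read 8.06, 7.97 and 8.08 in the control, 7.80, 7.83 and 7.70 with TQ. Under 5-FU it read 8.11, 8.29 and 8.31, and under both agents 8.10, 8.26 and 8.05. The TQ arrays were the lowest and the 5-FU arrays were above every control. With 12 arrays the differences were -0.26, 0.20 and 0.10 (SE 0.10, adjusted p = 0.455, 0.344 and 1). GSK3B fell by 0.26 with TQ in the 10-array fit (SE 0.08, adjusted p = 0.0299), while the differences with 5-FU and TQ+5-FU were 0.17 and 0.04 (adjusted p = 0.199 and 0.802).

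APC, the scaffold of the destruction complex, gave readings that depended on the probe set. The brightest, 203527_s_at, read 5.99, 6.07 and 6.07 in the control, 5.99, 5.80 and 5.99 with TQ. In the 5-FU group the values were 5.98, 6.14 and 6.09, and in the TQ+5-FU group 5.99, 5.99 and 5.64. It passed no test in either fit. Probe set 203525_s_at read 6.24, 5.89 and 5.54 in the control and 6.54, 6.76 and 6.82 with TQ, a log2 difference of 0.81 (adjusted p = 0.572 with 12 arrays and 0.00907 with 10). On 203526_s_at the TQ difference was 0.75 (adjusted p = 0.287 and 0.0021). Both had every TQ array above every control array, and neither passed the threshold with 5-FU or TQ+5-FU against the control. TQ+5-FU was below TQ by 1.05 on 203525_s_at and by 0.58 on 203526_s_at in the 10 arrays (adjusted p = 0.0116 and 0.0274). With 12 arrays neither passed in that contrast (adjusted p = 0.181 and 0.145). Probe sets 215310_at and 216933_x_at, at log2 signals of 3.12 to 4.08, passed none of the comparisons with the control.

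**Figure D4:**
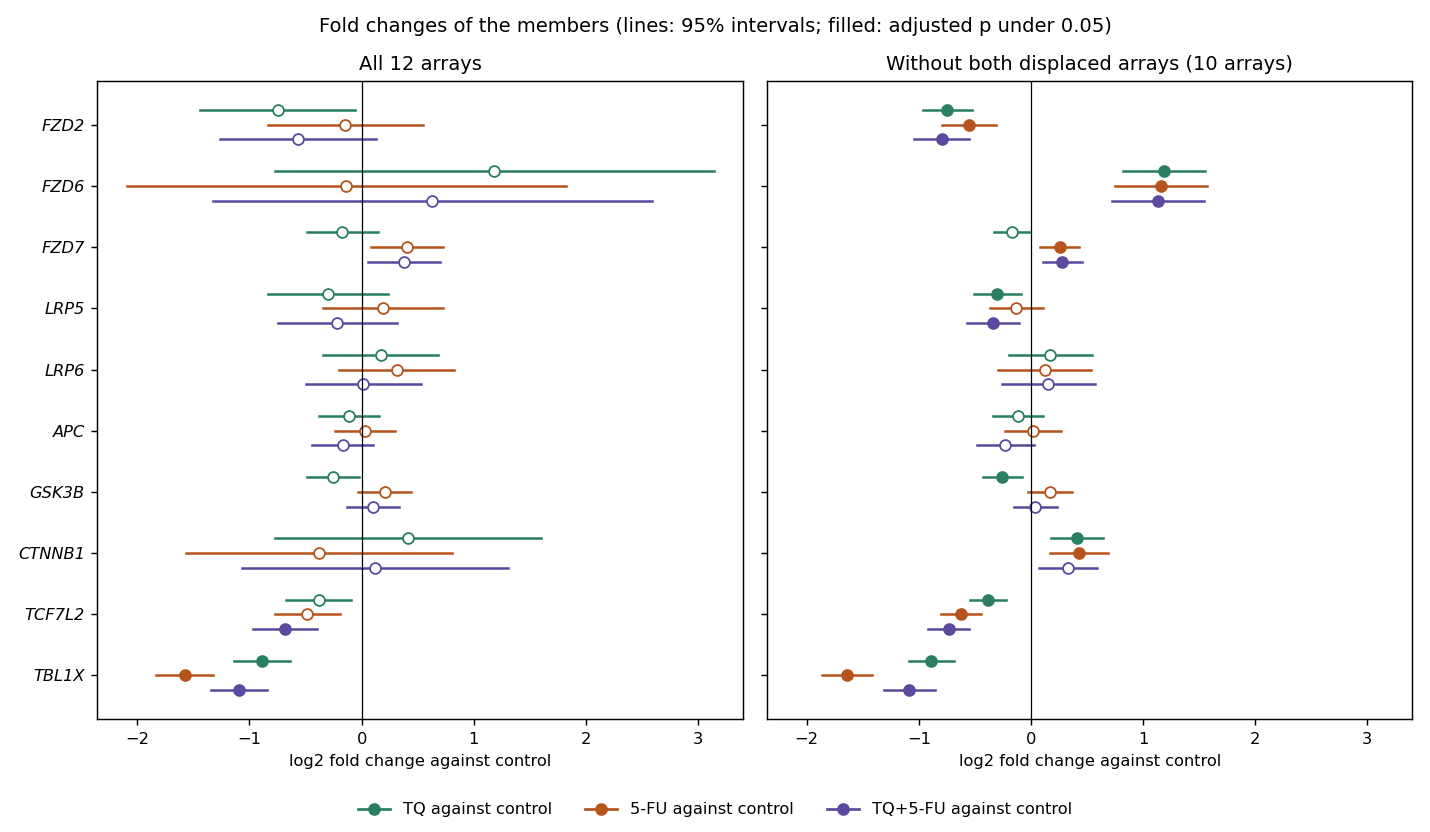
Log2 fold change of each member's brightest probe set against control (x axis) with all 12 arrays (left) and with 10 (right); points are estimates, lines 95% intervals, and filled points passed an adjusted p of 0.05. TBL1X has filled points in all 3 comparisons on both sides, and the intervals of FZD6 and CTNNB1 narrow without the displaced arrays, where FZD6 reads 1.18, 1.16 and 1.13.

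Likeness of pattern was taken as Pearson's r of the log2 signals between genes, 1 probe set each, among 11962 other genes, as a description of arrays that share the same groups. Closest to FZD6 over 12 arrays were ATP6V1C1 (r = 0.995), MAP2K4 (r = 0.994) and SH3BGRL (r = 0.994), a likeness that includes the low values of both displaced arrays. Over the 10 arrays they were SH3BGRL (r = 0.992), SYF2 (r = 0.991) and SPTLC1 (r = 0.990). Closest to TBL1X over 12 arrays were FRMD4A (r = 0.988), AKAP1 (r = 0.987) and NOL9 (r = 0.979), and over 10 arrays FRMD4A (r = 0.996), EIF3B (r = 0.994) and MMS19 (r = 0.993). SH3BGRL for FZD6 and FRMD4A for TBL1X were named over both sets of arrays.

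The other genes of the pathway were read from a list of 99, of which 80 had a probe set of their own. With TQ none of the 80 passed the threshold in limma's test with 12 arrays, and 10 had an unadjusted p under 0.05. The methods' t-test called 10 after adjustment. With 5-FU 3 were higher and 5 lower, and with TQ+5-FU 1 was higher and 1 lower. These are 10% of the list with 5-FU and 2.5% with TQ+5-FU, beside 6.68% and 2.58% of all probe sets. The list's median log2 fold change was -0.16, 0.13 and -0.04 with TQ, 5-FU and TQ+5-FU. Without the displaced arrays 26 were called with TQ (3 higher, 23 lower), 23 with 5-FU (7 higher, 16 lower) and 17 with TQ+5-FU (5 higher, 12 lower). These are 32.5%, 28.8% and 21.2% of the list, near the 30.6%, 26.1% and 21.4% of all probe sets. The list's medians were then -0.16, -0.03 and -0.08, so that the sign with 5-FU turned.

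Corepressors and nuclear partners gave 4 of the 8 calls with 5-FU, 1 of 10 measured corepressors and 3 of 11 nuclear partners. The share called over all probe sets was 6.68%. TLE4, a Groucho corepressor that binds TCF/LEF factors, read 6.22, 6.35 and 6.59 in the control, 8.21, 8.30 and 7.85 with 5-FU and 7.49, 7.31 and 7.39 with TQ+5-FU. It rose by 1.73 with 5-FU (SE 0.16, adjusted p = 0.000182) and by 1.01 with TQ+5-FU (adjusted p = 0.00799). Both of TLE4's 2 other probe sets had the same sign, and 1 was called with 5-FU and 0 with TQ+5-FU. SMARCA4, the ATPase of the SWI/SNF remodelling complex, fell by 0.75 with 5-FU (SE 0.12, adjusted p = 0.00518) and by 0.72 with TQ+5-FU (adjusted p = 0.0135). Of its 7 other probe sets 5 were called with 5-FU and 3 with TQ+5-FU, and 6 and 7 had the same sign. RUVBL1, an AAA+ ATPase that binds β-catenin, fell by 0.72 with 5-FU (SE 0.10, adjusted p = 0.00193), and LEF1, a TCF/LEF factor like TCF7L2, fell by 0.52 (SE 0.10, adjusted p = 0.0087). Of LEF1's 2 other probe sets, neither was called and 1 had the same sign.

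Among the pathway's known targets the directions were mixed with 5-FU. CCND1, which encodes cyclin D1, read 9.57, 9.65 and 9.82 in the control and 8.32, 8.55 and 8.94 with 5-FU, and fell by 1.07 (SE 0.17, adjusted p = 0.00408). MYC, the transcription factor that drives growth, fell by 0.96 (SE 0.12, adjusted p = 0.00122). CD44, a surface glycoprotein, rose by 0.81 (SE 0.11, adjusted p = 0.00149). Of CD44's 7 other probe sets 4 were called with 5-FU and 6 had the same sign, and the 1 other probe set of CCND1 was called. DKK3, a relative of the secreted Wnt inhibitors, rose by 0.90 (SE 0.19, adjusted p = 0.0195) on a dim probe set that read 3.47 to 3.86 in the control, and none of its other 4 probe sets was called. Among the 14 genes of ligands and their secretion, the 13 other receptors and the 14 dishevelled and destruction complex genes none passed limma's test with 12 arrays in any of the 3 comparisons. At an unadjusted p under 0.05 there were 1, 0 and 0 genes of ligands and their secretion with TQ, 5-FU and TQ+5-FU, 0, 2 and 1 receptors, and 1, 0 and 0 dishevelled and destruction complex genes.

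Applied to the 10 arrays, the same rule for naming list genes named 3 genes that rose and 4 that fell with TQ. Each list gene is given here by its brightest probe set alone. FZD3, a Frizzled of planar polarity, and LGR4, a receptor for R-spondins, rose by 0.82 and 0.52 (adjusted p = 0.00467 and 0.0218), as did PPP2CA, a catalytic subunit of phosphatase PP2A, by 0.38 (adjusted p = 0.0118). The probe sets of FZD3 and LGR4 were dim, at 4.32 to 4.99 and 4.49 to 4.71 in the control. SOX9, a crypt transcription factor, fell by 0.96 (adjusted p = 0.00115), the Groucho genes TLE1 and TLE3 by 0.49 and 0.48 (adjusted p = 0.00187 and 0.00624) and the ligand gene WNT2B by 0.46 (adjusted p = 0.00636). With TQ+5-FU the list genes past the threshold with the largest changes were TLE4, FZD1, DKK3, LGR4 and BMP4, which rose by 1.05, 0.60, 0.54, 0.51 and 0.34, and SOX9, SMARCA4, TLE3 and CCND1, which fell by 0.80, 0.76, 0.69 and 0.46. With 5-FU the 10-array fit had TLE4, DKK3, CD44 and TLE2 as the largest rises (1.87, 0.76, 0.73 and 0.45) and CCND1, MYC, SMARCA4 and TLE3 as the largest falls (-1.24, -1.10, -0.89 and -0.73).

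**Figure D5:**
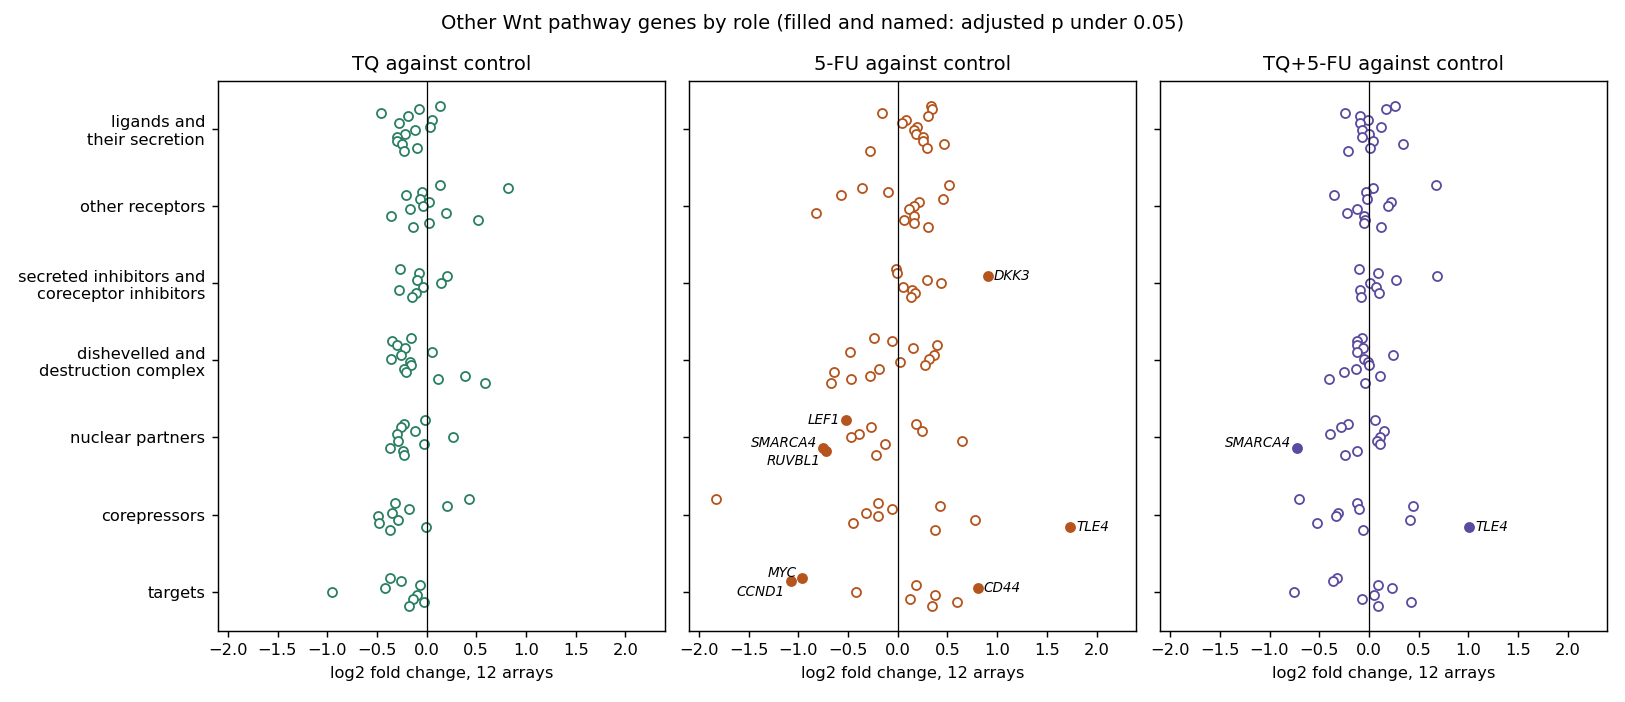
Log2 fold change against control with 12 arrays (x axis) of the 80 other Wnt pathway genes by role (y axis), 1 panel per comparison; points are genes, and filled and named points passed an adjusted p of 0.05. No point is filled with TQ, 8 are with 5-FU and 2, TLE4 and SMARCA4, with TQ+5-FU.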

How the data were processed

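RNA of 12 RKO samples was measured on HG-U133A 2.0 arrays. The authors deposited log2 signals per probe set, which they had background-corrected, quantile-normalized and summarised by RMA; the sources name GeneSpring GX in the methods and Affymetrix Expression Console in the submitters' processing notes. No detection calls or raw scans were used here, and array number limits the precision. Signals of different probe sets are not compared with one another.

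The 62 control probe sets of 22277 were left out. The remaining 22215 entered a linear model (limma 3.58.1, R 4.3.3) that gave each group its own mean over all 12 arrays, followed by two-sided moderated tests and Benjamini-Hochberg adjustment over all 22215, at a threshold of 0.05. Gene names came from the platform annotation, updated through Entrez identifiers to RefSeq: 19064 probe sets had 1 gene, 1043 several and 2108 none. The script was tested on simulated data, in which 50 brighter probe sets changed at each fold size. The 12-array fit called 12% to 20% of 1.5-fold, 46% to 48% of 2-fold and 74% to 82% of 4-fold changes. A small change that passed no test with 12 arrays could therefore have been missed. The members and gene lists were chosen with earlier results of these data known. Text names the 10 members, from the pathway list up to 4 genes per direction with the largest change past the threshold in each comparison with control, and the 3 genes most like FZD6 and TBL1X. Where 5 or fewer list genes moved in a direction, all are named. Alternatives covered the methods' own tests, scaling, filtering, weighting, the variance prior, the replicate block, probe set averaging and leaving out arrays.

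Replicate numbers were checked for pairing: of 18 pairs of arrays with the same number in different groups, deviations from the group means correlated above 0.1 in 6, between -0.84 and 0.86. Deviations within a group sum to 0 and the displaced arrays were included, so that this check cannot tell pairing from displacement. The numbers were not taken to pair the arrays, and a replicate block was run as an alternative.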

Additional observations from a re-analysis of the deposited data

Results flagged for a closer look

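On TBL1X probe set 213400_s_at the effect of 5-FU differed with and without TQ: the interaction term was 1.38 on the log2 scale (adjusted p = 0.0306 by limma). Its 5-FU arrays lay at 7.60 to 7.91, TQ+5-FU arrays at 8.16 to 8.39 and TQ arrays at 8.39 to 8.55. That term was called under 6 of 21 alternatives, with adjusted p between 1.37e-07 and 0.138. On the other TBL1X probe sets the interaction ran from 0.89 to 1.24, and with 12 arrays only 201867_s_at passed (adjusted p = 0.0498). All of them passed without the displaced arrays (adjusted p = 0.00451 to 0.0273).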

How the results depend on the processing

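Of 330 member fold changes recomputed under the alternatives that keep or drop whole sets, 270 kept their direction and side of the threshold, 44 newly passed it, 5 no longer did and 11 changed sign; of 360 with 1 array left out the counts were 335, 4, 12 and 9. The cause of these changes was not tested. Members called (1 with TQ, 1 with 5-FU, 2 with TQ+5-FU, 0 for TQ+5-FU against 5-FU, 0 against TQ, 1 for the interaction, 2 across the 4 groups) became 7, 6, 6, 1, 2, 2 and 7 without both displaced arrays, when list genes called went from 0, 8 and 2 to 26, 23 and 17. Array weights gave 8, 7, 9, 7, 6, 7 and 10 members and 44, 41 and 43 list genes, in a weight estimate that stopped before convergence and set TQ+5-FU replicate 3 to 110 against 0.0063 for 5-FU replicate 3. The methods' analysis of variance with Tukey's test gave 3 members with TQ, 2 with 5-FU, 1 for TQ+5-FU against 5-FU and 1 against TQ, with 6 list genes with TQ and 5 with TQ+5-FU. The methods' t-test gave 4 members and 10 list genes with TQ and 3 list genes with 5-FU; limma on the compared groups alone gave 7 and 23 with TQ and 1 list gene with 5-FU. The replicate block gave 0 members with TQ, 0 for the interaction and 1 across the groups, and changed no other count by over 1.5 times; the deviations of same-numbered arrays correlated between -0.84 and 0.86. Median centring gave 0 with TQ, 1 with TQ+5-FU, 0 for the interaction and 1 across the groups, with 1 list gene for TQ+5-FU; quantile normalization 0 for the interaction and 1 across the groups; the trended, robust prior 0 with TQ and 0 for the interaction; leaving out the dimmest 30% 2 with 5-FU; probe set averages 1 with TQ+5-FU, 1 across the groups and 1 list gene with TQ+5-FU. The methods' t-test and limma on the compared groups give no value for the interaction or across the groups.

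Signs changed without both displaced arrays and with array weights for 5-FU in FZD6 (1.16 and 0.95), LRP5 (-0.13 and -0.0343) and CTNNB1 (0.43 and 0.31), with array weights for 5-FU in LRP6 (-0.0700), and with probe set averages for FZD7 with TQ (0.0362), LRP6 with TQ+5-FU (-0.0252), and APC with TQ (0.34) and 5-FU (-0.22). With single arrays left out the 5-FU fold changes ran from -0.55 to 0.0904 for FZD2, -0.89 to 1.16 for FZD6, -0.13 to 0.40 for LRP5, -0.00452 to 0.0756 for APC and -0.84 to 0.43 for CTNNB1, and those with TQ+5-FU from -0.21 to 0.16 for LRP6 and -0.0451 to 0.33 for CTNNB1. Member counts then ran from 0 to 3 with TQ, 1 to 2 with 5-FU, 1 to 3 with TQ+5-FU, 0 to 1 for TQ+5-FU against 5-FU, 0 to 3 against TQ, 0 to 1 for the interaction and 1 to 5 across the groups, and list counts from 0 to 6, 6 to 17 and 0 to 9. The highest count, where above that with 12 arrays, came without 5-FU replicate 3.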

Other observations

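TBL1XR1, the paralog of TBL1X in the same corepressor complexes, was looked up after the values of TBL1X were seen. Its log2 signals were 9.07, 8.77 and 8.47 in the control, 8.97, 9.30 and 9.33 with TQ. The 5-FU arrays read 8.45, 8.03 and 4.34, and the TQ+5-FU arrays 9.10, 6.72 and 8.38. The values 4.34 and 6.72 were the displaced arrays. With 12 arrays the differences from control were 0.42, -1.83 and -0.71 (SE 0.94, adjusted p = 0.899, 0.342 and 1). Without them the differences from control were 0.42, -0.53 and -0.03 with TQ, 5-FU and TQ+5-FU (adjusted p = 0.141, 0.121 and 0.944), and no difference passed the threshold.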
